A study of Homo sapiens with 14 samples.

Results

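The CEBP family genes CEBPA, CEBPB, CEBPD, CEBPE, CEBPG and CEBPZ were examined in 4 ChIP-seq peak lists of HL60, a human cell line from acute myeloid leukaemia that can be made to mature towards granulocytes or monocytes. A peak was counted for a member when the authors' annotation gave that gene as its next transcript. This held for 37 of the 88872 peaks, and for 5 of the 6 members. The lists were SKI in CRISPR/Cas9 control cells (control cells, 14019 peaks, 1 sample), SKI in unmodified cells (replicate 1 with 54841 peaks and replicate 2 with 14431 peaks) and RUNX1 in unmodified cells (5581 peaks, 1 sample). All samples shared the line, the medium (RPMI with serum) and, for SKI, the antibody, and the labels name no treatment. The labels do not state what the control cells' guide targets or whether these cells are 1 clone. Where nothing says that samples came from separate cultures, the spread between the SKI lists may be technical. The other 10 samples of the series, which include cells with SKI deleted, IgG, histone marks and an antibody against the protein of CEBPB, were not analysed here, so SKI signal that does not need SKI could not be set apart.

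C/EBP proteins bind DNA as dimers through a basic leucine zipper and are among the main regulators of myeloid differentiation. C/EBP alpha commits progenitors to the granulocyte path, C/EBP epsilon drives late granulocyte maturation, and C/EBP beta acts in macrophages and in emergency granulopoiesis. SKI is a corepressor that is brought to DNA by partners such as SMAD proteins, and RUNX1 is a DNA-binding factor that regulates CEBPA in blood progenitors. CEBPZ carries the family symbol but encodes a CCAAT-binding protein with no leucine zipper of this kind.

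SKI peaks were named for CEBPA, CEBPB, CEBPD, CEBPE and CEBPG, and RUNX1 peaks for CEBPE alone. By these names CEBPE was the member with SKI and RUNX1. CEBPA, CEBPB, CEBPD and CEBPG had SKI without RUNX1, and no peak of either protein was named for CEBPZ. Among the members, 5 of 6 had a SKI peak in any list, against 66.1% of 20052 protein-coding genes. By list, 3 of 6 had one in control cells (29.7% of protein-coding genes), 5 in replicate 1 (65.0%) and 4 in replicate 2 (30.7%). A SKI peak in each of the 3 SKI lists was named for CEBPB, CEBPE and CEBPG, which is 3 of 6 members, against 22.9% of protein-coding genes. CEBPA was named in 2 SKI lists (against 13.5% of protein-coding genes) and CEBPD in 1 (against 29.8%). A RUNX1 peak was named for 1 of 6 members, against 11.2% of protein-coding genes. With so few genes these counts describe the members and were not tested. Control cells had 9 of the members' peaks, replicate 1 had 15, replicate 2 had 11 and the RUNX1 list had 2.

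**Figure D1:**
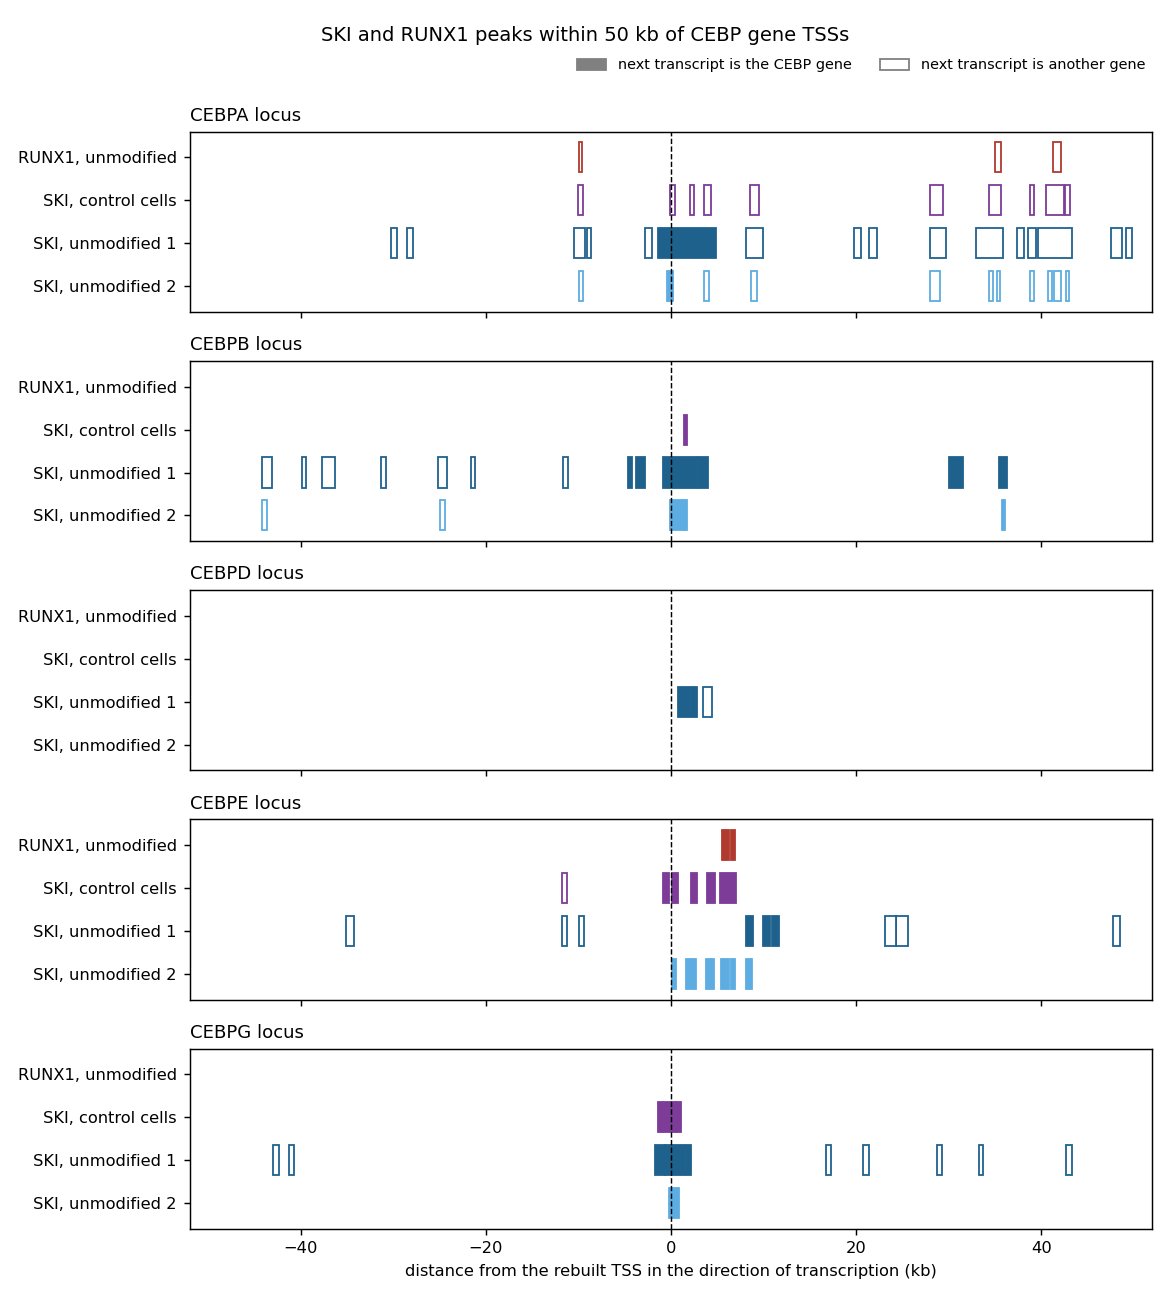
SKI and RUNX1 peaks within 50 kb of the transcription start site (TSS) of 5 CEBP genes. Each box spans 1 peak, the x axis is the distance from the TSS in the direction of transcription in kb, the 4 rows of a panel are the 4 lists, and filled boxes are peaks whose next transcript is the CEBP gene. RUNX1 boxes appear at CEBPE and CEBPA and at no other locus, and CEBPD has boxes in 1 list.

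Peaks that overlapped by at least 1 bp in the 3 SKI lists were joined into sites, and a site with a peak of every SKI list was called shared. The 35 SKI peaks of the members formed 19 sites, of which 3 were shared, 6 held peaks of 2 lists and 10 those of 1 list. Of these 10, 9 were in the long list of replicate 1. Of all 55146 SKI sites, 16.3% were shared. The shared sites lay at CEBPA, CEBPB and CEBPG, so that 3 of 6 members had one, against 24.0% of protein-coding genes. RUNX1 overlapped none of these 3 sites, 0 of 3 with a 95% Wilson interval of 0% to 56.1%, against 33.5% of the 8980 shared sites of the whole genome. The interval covers counting error only and holds the genome-wide share. The shared sites numbered 7, 1 of them with RUNX1, without replicate 1, 5 with none without the control cells, and 1 with none when all lists were held to 5581 peaks. The same shifts over all sites are not given here, so these counts show nothing particular to the members. Among the members' 19 sites of any list, 1 carried RUNX1, against 9.36% of all SKI sites. By gene, 1 of 6 members had both proteins at a site of any list, against 11.3% of protein-coding genes.

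The promoters of CEBPA, CEBPB and CEBPG were richer in G and C than those of CEBPE and CEBPZ. RefSeq promoter windows, from 250 bases before to 50 bases after a gene start on GRCh38.p14, were found for 5 of the 6 members. G and C made up 80.7% of the CEBPA window, 77.0% and 76.7% of the 2 CEBPB windows and 77.3% and 79.7% of the 2 CEBPG windows, against a median of 58.7% over 35116 windows. The values were 57.7% for CEBPE and 62.7% for CEBPZ. The CEBPA window held 50 CpG dinucleotides, the CEBPZ window 26 and the CEBPE window 2, against a median of 14. Whether base composition goes with SKI peaks was not tested. CEBPE, too, had SKI peaks just inside the gene in control cells and replicate 2. The 250 bases before the gene start are shown for 1 window each of CEBPA, CEBPB, CEBPG and CEBPE, with each CpG in capitals, because they make this contrast visible. They lie at chr19:33302535-33302784 (minus strand), chr20:50190580-50190829 (plus), chr19:33373863-33374112 (plus) and chr14:23119256-23119505 (minus). For CEBPB and CEBPG the more downstream of the RefSeq starts is shown.
CEBPA: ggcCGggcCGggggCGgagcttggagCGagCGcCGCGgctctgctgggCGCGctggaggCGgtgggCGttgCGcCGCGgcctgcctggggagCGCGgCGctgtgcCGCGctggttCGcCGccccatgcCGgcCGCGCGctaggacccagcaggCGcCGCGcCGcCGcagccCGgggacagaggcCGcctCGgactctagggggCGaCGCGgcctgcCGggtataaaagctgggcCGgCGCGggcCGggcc
CEBPB: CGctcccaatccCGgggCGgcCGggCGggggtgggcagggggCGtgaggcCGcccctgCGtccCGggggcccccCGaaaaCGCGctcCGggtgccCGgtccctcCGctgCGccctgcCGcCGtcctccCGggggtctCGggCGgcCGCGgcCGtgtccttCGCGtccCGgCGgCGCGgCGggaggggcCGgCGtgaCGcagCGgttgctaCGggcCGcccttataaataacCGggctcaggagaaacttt
CEBPG: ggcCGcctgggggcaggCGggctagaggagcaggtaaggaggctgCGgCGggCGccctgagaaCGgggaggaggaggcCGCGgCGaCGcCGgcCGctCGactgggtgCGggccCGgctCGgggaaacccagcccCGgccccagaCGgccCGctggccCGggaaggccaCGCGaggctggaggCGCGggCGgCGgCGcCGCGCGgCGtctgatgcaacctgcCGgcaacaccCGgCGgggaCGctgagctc
CEBPE: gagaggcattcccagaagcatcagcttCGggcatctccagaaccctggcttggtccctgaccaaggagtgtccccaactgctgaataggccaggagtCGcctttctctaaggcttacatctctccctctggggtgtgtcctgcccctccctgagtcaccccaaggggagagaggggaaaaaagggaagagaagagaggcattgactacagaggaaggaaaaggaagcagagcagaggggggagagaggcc

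The windows were searched on both strands for the RUNX letters TGTGGT and TGCGGT, the C/EBP letters TTGCNNCAA and the SMAD letters CAGAC. Of all windows, 13.1%, 7.29%, 1.98% and 45.3% hold them in that order. The CEBPG window shown holds CAGAC at 2 places, and no other match lay in a member's window, so no match overlapped another. A match or its lack says only which letters this window holds. Peak positions below are on hg19, as in the deposited files, and were not converted. Fold enrichment is the authors' value for a peak over the background of the peak caller, and a percentile is the rank of that value within the peak's own list, where 100% is the strongest peak.

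CEBPE (ENSG00000092067), the late granulocyte factor, had 16 of the 37 peaks and 8 SKI sites. At least 8 sites were named for 2.79% of protein-coding genes. Site counts depend on joining, and a wide peak of replicate 1 can join several peaks into 1 site, as at CEBPA. Replicate 1 listed no peak at the CEBPE sites from 23581836 to 23589674. The count is therefore not like for like with genes where that list has wide peaks. The strongest region of CEBPE lay downstream of the gene, about 6 kb from the TSS (chromosome 14, 23581836 to 23583509). It was classed as intergenic. In control cells 1 SKI peak covered the whole region with 833 tags and a fold enrichment of 84.6, at percentile 99.1 (rank 127 of 14019). In unmodified cells, replicate 2, a SKI peak at a deposited distance of 5801 bp had 346 tags and a fold enrichment of 33.1 (percentile 94.7). A second one at 6746 bp had 253 tags and 28.4 (percentile 92.8). These were the strongest peaks named for any member in those 2 lists. An enhancer at a like distance downstream of Cebpe is known from mouse granulocytes.

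RUNX1 had 2 peaks in the same region of CEBPE. The one at 5808 bp (23582597 to 23583334) had 213 tags and a fold enrichment of 50.8, at percentile 92.1 (rank 441 of 5581). The one at 6731 bp (23581880 to 23582369) had 233 tags and 32.1, at percentile 79.7. Both paired with a SKI peak of replicate 2, whose summits were 43 and 77 bp away, and the summit of the control cells' peak was 58 bp from the stronger RUNX1 summit and 902 bp from the other. Of all RUNX1 peaks, 95.1% overlapped a SKI peak of some list, 70.7% one of control cells, 92.9% one of replicate 1 and 60.4% one of replicate 2. Both CEBPE peaks overlapped SKI in control cells and replicate 2 and not in replicate 1. At least 2 RUNX1 peaks were named for 2.63% of protein-coding genes.

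Closer to the CEBPE gene, control cells and replicate 2 had SKI peaks at 3 like positions, each weaker than the downstream region in the same list. Just inside the gene, at 392 bp from the TSS in control cells and 408 bp in replicate 2, the fold enrichments were 14.5 with 81 tags (percentile 63.2) and 15.1 with 93 tags (percentile 72.8). An exon peak lay at 2454 bp in control cells, with a fold enrichment of 10.6 and 66 tags, and at 2480 bp in replicate 2, with 9.52 and 111 tags. A further peak, classed as upstream, lay at 4231 bp in control cells, with 9.94 and 97 tags. In replicate 2 it lay at 4122 bp, with 6.60 and 86 tags. Control cells alone had a peak of 37 tags at -505 bp with a fold enrichment of 4.36, at percentile 1.38. No SKI peak of any list covered the CEBPE TSS as rebuilt from the deposited distances, at 23588828. The nearest edge was 120 bp from that position. This distance is approximate, since single peaks placed the TSS from 23588792 to 23589063, a range that no listed SKI peak reached. The RefSeq start on GRCh38 was not placed on hg19, so whether a peak covers that start was not examined.

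The list of replicate 1 showed none of these CEBPE peaks. It held a peak at 8477 bp (fold enrichment 37.9, 260 tags, percentile 79.1) and 2 beyond 10 kb with fold enrichments of 11.5 and 17.4. The one at 8477 bp overlapped a replicate 2 peak with a fold enrichment of 6.22 and 58 tags. From the end of that peak to the next listed one, named for SLC7A8, no peak was listed over 17525 bp, and 5 peaks of control cells, 5 of replicate 2 and both RUNX1 peaks lay in this stretch. The list numbers its peaks by the rows of a longer table, and exactly 1 number was skipped there. What that row held is not known here. Of all gaps between neighbouring peaks of this list, 23.9% had a skipped number. Peaks of the other lists that lay outside its peaks, in a gap between them, were also placed. For replicate 2, 97.1% of 373 such peaks fell in a gap with a skipped number. The share was 95.4% for control cells and 80.2% for RUNX1. The first share counts gaps and the others count peaks, and gap length was not taken into account. They are therefore not like quantities. Replicate 1 overlapped 97.5% of control cells' peaks and 97.4% of those of replicate 2, and 134 of the 141 strongest 1% of control cells' peaks. The CEBPE peak was among the other 7. Without replicate 1 the members had 7 sites shared by both other SKI lists, 4 of them at CEBPE, and 1 of these 4 carried RUNX1. Why the peaks are missing from that list was not tested.

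**Figure D2:**
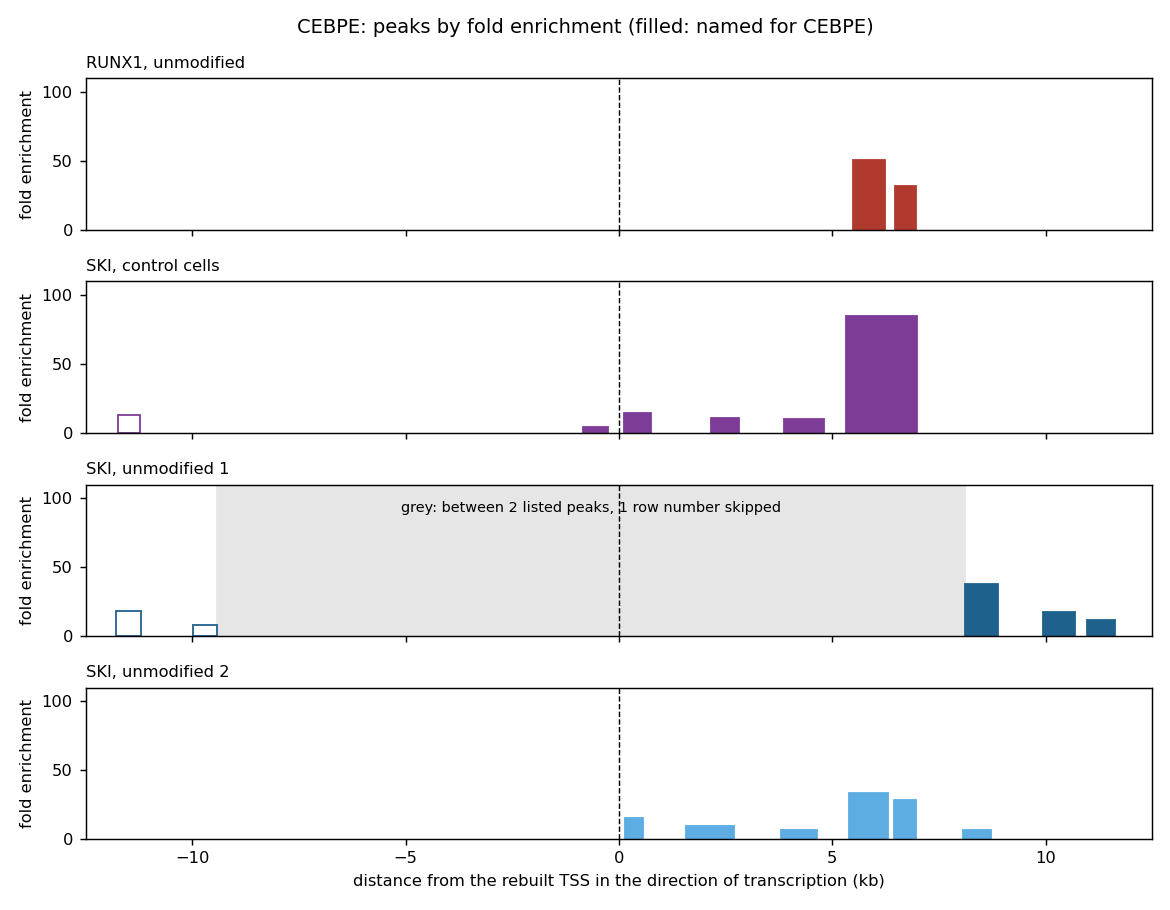
Peaks around CEBPE by list. The x axis is the distance from the CEBPE TSS in the direction of transcription in kb, the y axis the authors' fold enrichment, each bar spans 1 peak, filled bars are named for CEBPE, and grey marks the stretch of replicate 1 with 1 skipped row number. The tallest bar, 84.6 in control cells, stands over the RUNX1 bars of 50.8 and 32.1, and lies within the grey stretch.

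CEBPA (ENSG00000245848), the factor that commits cells to the granulocyte path, had 1 site named for it, and it spanned the TSS (chromosome 19, 33788601 to 33794839). In control cells the peak over the TSS had 50 tags and a fold enrichment of 8.26 and was named for AC008738.1. In replicate 1 a single peak of 6239 bp had 1477 tags and a fold enrichment of 75.8, at percentile 94.7. In replicate 2 the peak had 103 tags and 17.7, at percentile 80.3. The summits lay at 33793426 in control cells, 33793492 in replicate 1 and 33793538 in replicate 2, on either side of the rebuilt start at 33793463. The wide replicate 1 peak also joined further peaks named for CTD-2540B15.11 to this site. In control cells they lay 3.90 kb downstream of the TSS (58 tags, fold enrichment 5.91) and 2.27 kb downstream (28 tags, 6.87). In replicate 2 one lay 3.81 kb downstream (49 tags, 10.1).

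Most peaks around CEBPA were assigned to other transcripts. Within 50 kb of the TSS there were 10 SKI peaks in control cells, 16 in replicate 1, 11 in replicate 2 and 3 RUNX1 peaks, and 0, 1, 1 and 0 of them were named for CEBPA. They formed 16 SKI sites, of which 7 were shared and 3 were shared with RUNX1. The site downstream at 41.5 kb (33750195 to 33753776, named for CTD-2540B15.12) was the strongest of them in each SKI list. Its highest fold enrichments were 47.9 with 450 tags in control cells, 97.97 with 2139 tags in replicate 1 and 25.5 with 111 tags in replicate 2. Replicate 2 had 2 more peaks in it, and the one with 198 tags and 22.5 was the one that RUNX1 overlapped. The RUNX1 peak in it had 147 tags and a fold enrichment of 33.9, at percentile 81.5, with its summit 11 bp from a SKI summit of replicate 2 and 83 bp from that of control cells. In replicate 1, where the SKI peak was 3582 bp wide, the summits were 685 bp apart. A myeloid enhancer of human CEBPA that binds RUNX1 is known in this downstream region.

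The other sites with RUNX1 near CEBPA lay 34.4 kb downstream and 9.87 kb upstream. At the downstream one (33757628 to 33760542) the highest SKI fold enrichments were 13.7 in control cells, 80.2 in replicate 1 and 12.4 in replicate 2, and RUNX1 had 60 tags and 35.7 (percentile 83.3). At the upstream one (33802780 to 33803890, named for CTD-2540B15.9) they were 11.6, 50.4 and 10.3, and RUNX1 had 55 tags and 27.5 (percentile 72.5). The SKI and RUNX1 summits of these sites were 4 to 51 bp apart in every list. Whether these sites act on CEBPA cannot be read from peak lists.

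**Figure D3:**
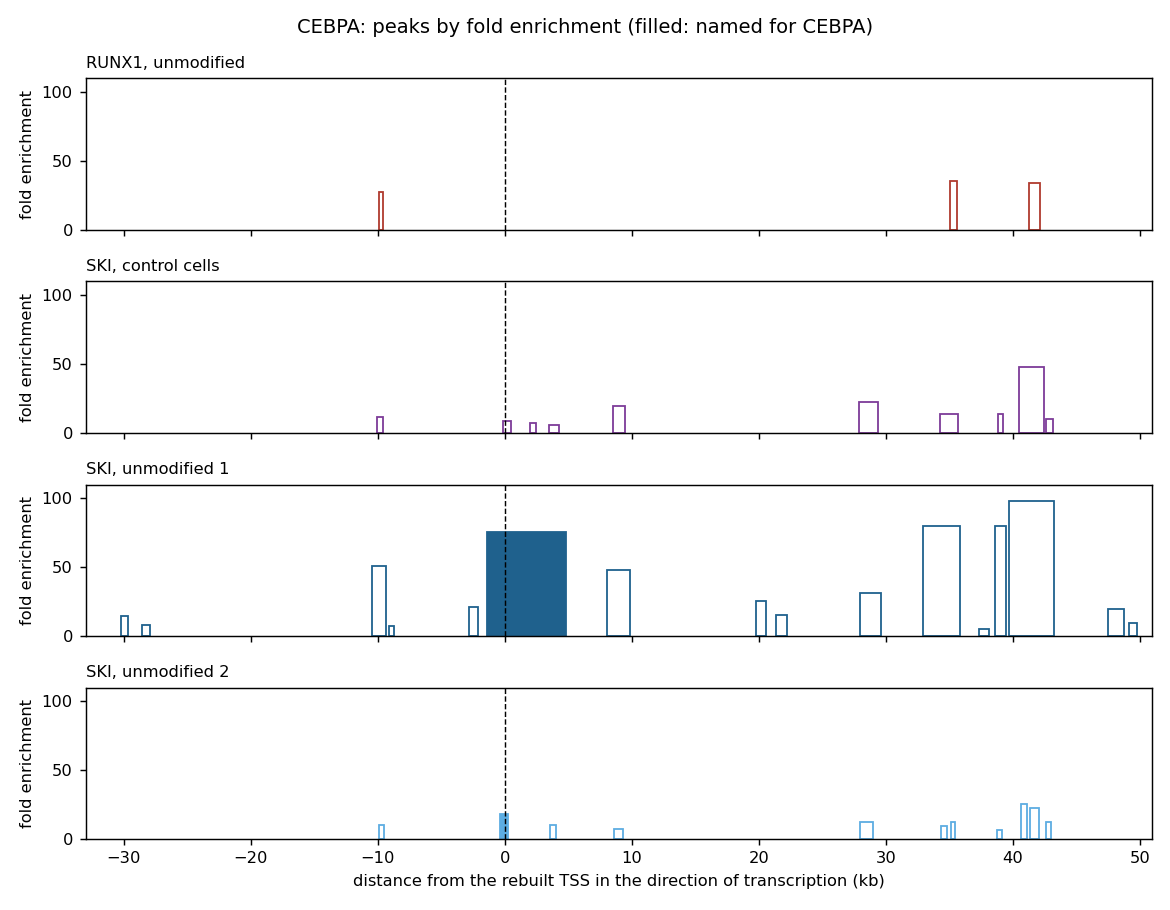
Peaks around CEBPA by list. The x axis is the distance from the CEBPA TSS in the direction of transcription in kb, the y axis the authors' fold enrichment, each bar spans 1 peak, and filled bars are named for CEBPA. The 3 RUNX1 bars stand where every SKI list has a bar, and none stands at the TSS.

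CEBPB (ENSG00000172216), the factor of macrophages and emergency granulopoiesis, had 10 SKI peaks named for it, and no RUNX1 peak lay within 50 kb of its TSS. Its shared site spanned the gene start and its coding part (chromosome 20, 48806526 to 48810168). A summit about 1.58 kb from the TSS recurred in all 3 SKI lists, at 48808957 in control cells, 48808956 in replicate 1 and 48808960 in replicate 2. Its fold enrichments were 15.3 with 36 tags in control cells (percentile 66.2), 50.8 with 1124 tags in replicate 1 (percentile 86.9) and 9.21 with 42 tags in replicate 2 (percentile 41.8). The authors classed it as exon in control cells and replicate 2, and CEBPB has a single exon. Over the TSS itself control cells had no peak, replicate 1 had the same wide peak, and replicate 2 had a second one at 122 bp with a fold enrichment of 6.84 and 126 tags.

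The other peaks named for CEBPB were listed in unmodified cells and not in control cells. Beyond 10 kb, 2 peaks of replicate 1 were named for it, with fold enrichments of 53.5 and 71.2, and 1 in replicate 2, with 7.94. Nearer the gene, replicate 1 had peaks at -4422 bp (8.72, 41 tags), -3203 bp (43.3, 195 tags) and 3733 bp (16.9, 118 tags). The fewest tags of a listed peak were 27 in control cells and 26 in both replicates. Without the depth, absence of a peak from a list cannot be told apart from a failure to detect it.

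CEBPG (ENSG00000153879), which lacks a strong activation domain and dimerises with other bZIP proteins, had all 7 of its peaks at the TSS. The shared site (chromosome 19, 33862661 to 33865875) held 3 peaks in control cells, at -960, 121 and 94 bp from a CEBPG TSS, with fold enrichments of 6.99, 11.3 and 5.56 and tags of 42, 105 and 36. Replicate 1 had 2 peaks in it, at -813 and 420 bp, with 30.9 and 49.9 and tags of 240 and 670, and replicate 2 had 1 at 259 bp, with 11.5 and 127 tags. The strongest peak stood at percentile 47.5, 86.5 and 57.3 in these lists. The other control-cell peaks stood at percentile 15.7 and 6.08. A peak of 38 tags in replicate 1, with a fold enrichment of 11.0, lay downstream outside the site. CEBPA and CEBPG are neighbours on chromosome 19, and no RUNX1 peak lay within 50 kb of CEBPG.

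CEBPD (ENSG00000221869), an acute-phase and inflammatory factor, had 2 SKI peaks in replicate 1 and none in control cells, replicate 2 or the RUNX1 list. On chromosome 8, the one at 48649679 to 48650939 had 138 tags and a fold enrichment of 12.0 (percentile 25.6). The one at 48648897 to 48649599 had 37 tags and 8.76 (percentile 11.7). Both were weak within that list, and the nearer one ended 789 bp downstream of the rebuilt start. No peak was named for CEBPZ. Its neighbour NDUFAF7, next to it in the RefSeq gene table, had a SKI peak in replicate 1 and none in the other lists. At a deposited distance of -12 bp from the NDUFAF7 TSS, the peak had 184 tags and a fold enrichment of 13.9 (percentile 33.5). That peak ran from 37458253 to 37459756 on chromosome 2. Without a peak named for CEBPZ its TSS could not be rebuilt on hg19. Whether the NDUFAF7 peak also covers the CEBPZ start was therefore not examined.

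None of the members' peaks was classed as intronic, and their strength spread widely. Of the 37 peaks 15 were classed as TSS, 12 as intergenic, 5 as upstream, 5 as exon and 0 as intron. Over all peaks of control cells, replicate 1 and replicate 2 in that order, the TSS class held 48.0%, 35.2% and 52.4%, the intergenic class 17.5%, 22.5% and 16.2%, the upstream class 5.0%, 6.27% and 5.27%, and the exon class 4.33%, 5.52% and 3.78%. Of RUNX1 peaks, 23.5% were in the TSS class, 28.0% intergenic, 6.31% upstream and 5.43% in exons. Introns held 25.1%, 30.5% and 22.3% of all peaks in control cells, replicate 1 and replicate 2 and 36.7% of RUNX1 peaks, and CEBPA, CEBPB and CEBPD have no intron to hold one. The class upstream was also given to peaks at positive distances, as at CEBPE and CEBPB, so distances were used to place peaks. The median percentile of the members' SKI peaks was 43.1 in control cells, 72.5 in replicate 1 and 44.0 in replicate 2, where the median of any whole list is 50.

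**Figure D4:**
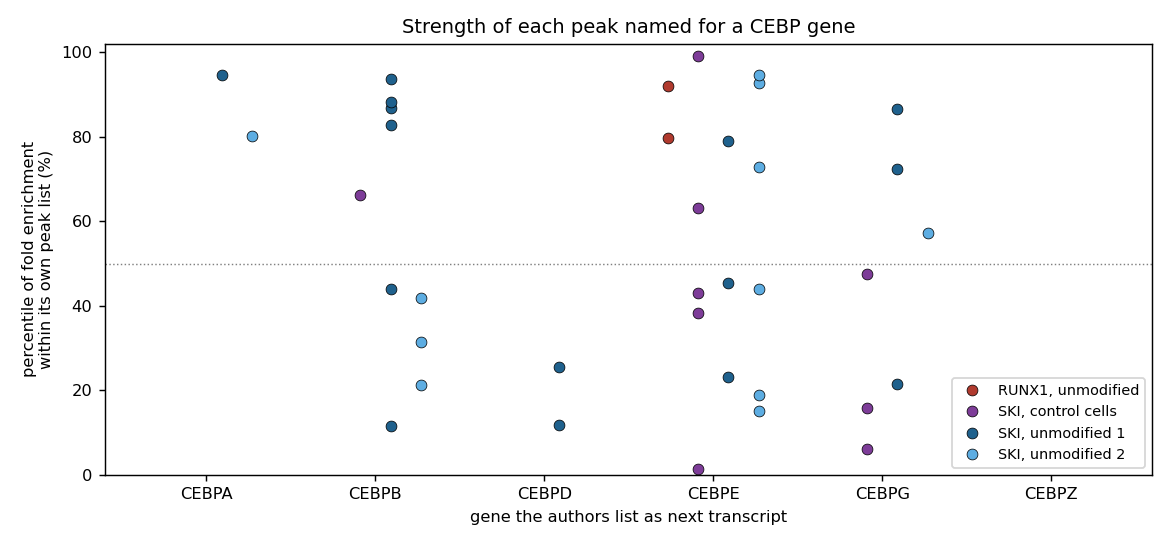
Strength of the 37 peaks named for CEBP genes. The y axis is the percentile of a peak's fold enrichment within its own list, the x axis the gene, each point 1 peak coloured by list, and the dotted line the middle of a list. CEBPE spans from 1.38 to 99.1, CEBPD lies below 26, and CEBPZ has no point.

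The related genes comprised 12 bZIP genes whose proteins pair with or resemble C/EBP proteins, 6 regulators of C/EBP proteins or their translation, and 16 myeloid genes that C/EBP proteins are known to activate. A shared SKI site was named for 8 of the 12 bZIP genes, 5 of the 6 regulators and 13 of the 16 targets, against 3 of the 6 members and 24.0% of protein-coding genes. RUNX1 peaks were named for 4, 1 and 9 of them, against 1 member and 11.2% of protein-coding genes. Both proteins met at a shared site in 3 bZIP genes, 1 regulator and 7 targets, against no member and 7.27% of protein-coding genes. No peak at all was named for DDIT3, TRIB1, MMP8 and LCN2, which are given here after their values were seen. DDIT3 encodes CHOP, a dominant-negative partner of C/EBP proteins.

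Among the targets, CSF2RA, a receptor subunit for GM-CSF, had fold enrichments up to 22.3 in control cells, 107 and 18.7 in replicates 1 and 2, and 38.5 for RUNX1. MPO, the gene of myeloperoxidase, had up to 31.0, 74.8, 16.7 and 43.5 in the same order. PRTN3, a granule protease gene, had up to 20.0, 104 and 17.5, and no RUNX1 peak was named for it. ELANE, the gene of neutrophil elastase, was named for peaks in replicate 1 alone, the strongest at percentile 86.5. A peak near a gene can be named for another transcript, as at CEBPA, and the surroundings of the related genes were not examined. Among the regulators, CALR, whose protein binds CEBPA mRNA, had 86.4, 75.6, 51.3 and 99.4, which put the RUNX1 peak at percentile 98.7. TRIB3, a pseudokinase gene, had 24.7, 79.2 and 37.6, and COP1, the gene of a ubiquitin ligase that degrades C/EBP alpha, had 7.90, 19.6 and 6.34. PCBP2 had 10.8, 27.1 and 10.2. Among the bZIP genes, ATF3 had 22.9, 70.8 and 27.7, ATF5 had 14.2, 52.8 and 17.8, JUN had 12.8, 36.7 and 13.0, and HLF had 19.3 in replicate 1 alone, all without RUNX1. Genes were named by their lowest percentile over the lists in which they had a peak. This left out FOS and NFIL3, whose RUNX1 peaks stood at percentile 40.4 and 16.0. Their SKI fold enrichments reached 78.2, 140.7 and 60.05 for FOS and 32.4, 87.7 and 26.95 for NFIL3. Each had RUNX1 at a shared SKI site. AZU1, a target left out by the same rule with a lowest percentile of 76.6, also had RUNX1 at a shared SKI site. Its fold enrichments reached 19.0, 82.8 and 16.8 for SKI and 79.8 for RUNX1, the last at percentile 97.7.

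**Figure D5:**
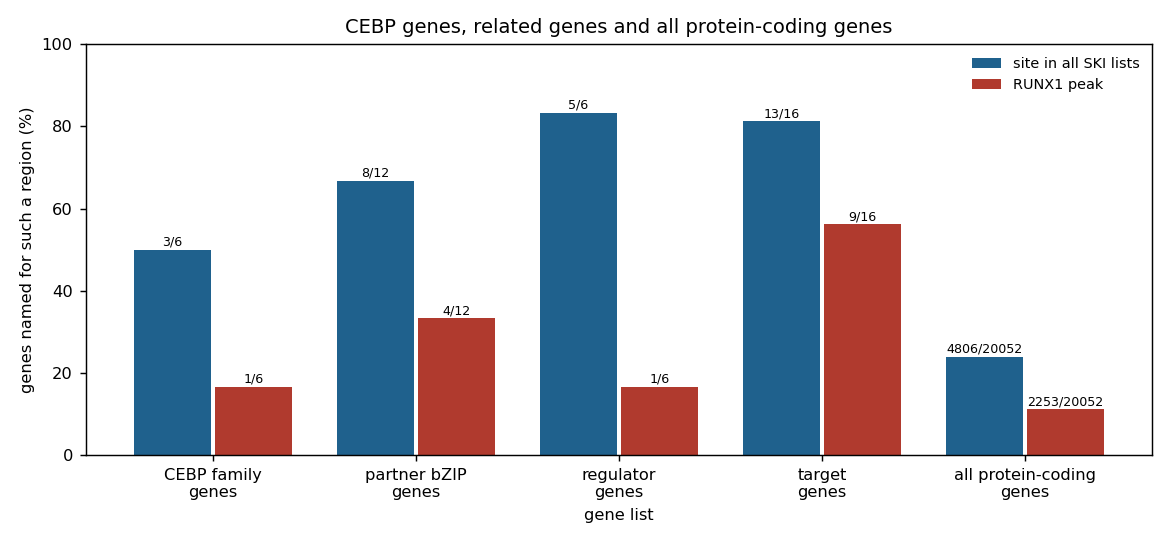
Share of genes named for a site in all 3 SKI lists and for a RUNX1 peak, in percent, for the CEBP family, 3 lists of related genes and all protein-coding genes. Numbers over the bars are genes with such a region of genes in the list, and the myeloid targets stand at 13 of 16 and 9 of 16, against 3 of 6 and 1 of 6 for the family.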

How the data were processed

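Peak lists of 4 of the 14 samples were used, with groups from the sample titles. The submitters' processing notes name bcl2fastq, Bowtie2, MACS 1.4, deepTools, hg19 and GRCh37 without their roles, and no source used here gives the control library of a ChIP or the depth. Per the file headers, a deposited list holds for each peak a −log10 p-value, a fold enrichment (a ratio), a count of tags, a position class, the next transcript and a signed TSS distance. Median tags per peak were 61 in control cells, 97 and 56 in replicates 1 and 2 and 56 for RUNX1.

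SKI peaks were joined into sites by overlap of at least 1 bp. TSS positions were rebuilt from summits and deposited distances. Over all transcripts with more than 1 peak the median deviation was 11.5 bp, and 371 bp at the 99th percentile. Single peaks placed the CEBPE TSS from 23588792 to 23589063 and 1 CEBPG TSS from 33864251 to 33864745. Peak distances from a TSS in bp are the deposited ones. They can differ from the summit's distance to the rebuilt TSS, as at CEBPE with 5801 against 5785 bp. A RefSeq table (GRCh38.p14) gave names, promoters and neighbours, and 96.3% of 13808 named protein-coding genes matched, as did all 6 members and all 34 related genes. No test was made, since RUNX1 and the control cells have 1 sample each. The members and lists were chosen with earlier results of these data known. Named were all member peaks within 10 kb of the TSS or with RUNX1. Up to 4 genes per related list were named, those with the highest lowest percentile. Only peak lists in which the gene had a peak counted for this, so absence from a list did not lower a gene. The skipped row numbers were examined after seeing the data. Joining was tested on simulated lists, where all 700 planted shared sites among 2000 came back. Alternatives were a stricter threshold, equal lists, 1 SKI list fewer, and other overlaps and distances. Software was Python 3.11.15 with pandas 2.3.3, numpy 2.4.6, scipy 1.17.1 and matplotlib 3.10.9.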

Additional observations from a re-analysis of the deposited data

How the results depend on the processing

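Of the 38 alternative values for the members, 25 stayed within 1.5 times and 13 moved further. The 25 include counts of members and of sites with both proteins that were 0 and stayed 0. For these a ratio has no meaning, so the tally does not measure stability. The number of members with a shared SKI site was 3 with the stricter threshold (−log10 p of at least 10), with overlap of at least 50% of the shorter peak and with distances of 10 and 50 kb. With lists held to 5581 peaks each, it was 1, CEBPG, with 1 shared site. Leaving out any single SKI list gave 3 to 4, with CEBPE as the added member without replicate 1 or without the control cells. The shared sites then ranged from 3 to 7, those with RUNX1 from 0 to 1, and members with both proteins at a shared site from 0 to 1, the 1 being CEBPE without replicate 1. By distance in place of the authors' next transcript, 10 kb gave 5 shared sites, 1 of them with RUNX1, and 50 kb gave 9, 3 of them with RUNX1, and the member with both was CEBPA, so that count was 1 at either distance. RUNX1 peaks of members numbered 5 at 50 kb. Pairing RUNX1 by summits within 250 bp was run for the counts at shared sites, which were 0 and stayed 0. The cause of these shifts was not tested, and the same counts over all genes and sites at these settings are not given here. For the related genes, where the same alternatives were added after seeing the data, 32 of 36 counts stayed within 1.5 times. With equal lists 4 bZIP genes, 2 regulators and 6 targets had a shared site, and 3 regulators had a RUNX1 peak at 50 kb. The lists give no depth, so absence of a site from a list and failure to detect it cannot be told apart. No paired analysis was possible because no test was made and the SKI groups have only number 1 in common.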
